A study of Mus musculus with 14 samples.

Results

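The unfolded protein response of microglia was followed through 10 genes, taken by symbol from a table of gene counts as sensors and targets of stress in the endoplasmic reticulum (ER). They were the sensors Ern1, Eif2ak3 and Atf6, the transcription factors Xbp1, Atf4 and Ddit3, the chaperones Hspa5 and Hsp90b1, the co-chaperone Dnajb9 and the degradation factor Herpud1. The table held 24394 named genes, among them all 10, and all 10 were among the 11646 genes with a mean of at least 10 normalized counts that were tested. Microglia, the resident macrophages of the brain, came from C57BL/6 mice aged 18 months and were sorted as living cells with CD11b and a low level of CD45, at about 20000 cells per sample. For 1 month before, pumps had fed the cerebrospinal fluid with control IgG or with an antibody blocking CD22, a Siglec that binds sialic acid and inhibits immune cells, and only the hemisphere opposite the cannula was used. Each group had 7 libraries, named here by group and replicate number, and both groups shared strain, age, pump surgery and sort. Nothing in the labels ties libraries to separate mice, so p-values measure the spread between these libraries, which may be technical.

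The ER folds membrane and secreted proteins, and a load of unfolded protein there is sensed by 3 membrane proteins: IRE1, encoded by Ern1, PERK, encoded by Eif2ak3, and ATF6. IRE1 splices the Xbp1 messenger RNA into a form that encodes an active transcription factor, PERK phosphorylates eIF2alpha so that general translation slows while that of Atf4 goes on, and ATF6 is cut in the Golgi to free a transcription factor. These factors induce chaperones and degradation genes of the ER, and under lasting stress Ddit3, which encodes the pro-death factor CHOP. Counts per gene do not separate spliced from unspliced Xbp1 and hold nothing on phosphorylation or cleavage, so the values below are levels of messenger RNA only.

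Whole reads could be recovered for 13 libraries and ranged from 20221836 to 38101421 per library, and the normalized counts summed to between 27357939 and 29197481. The 10 microglia markers summed to between 1822320 and 2172920 normalized counts per library, and 0 of 7 T and NK cell markers reached the level for testing. Border-associated macrophage markers summed to between 4551 and 8406 with IgG and between 5860.5 and 8005 with anti-CD22; 7 of 7 tested were higher with anti-CD22 (median log2 difference 0.57, 0 past an adjusted p of 0.05 by limma), and their part in the results below was not tested. Of 8 B and plasma cell markers, 3 were at 0 in every library, Ms4a1 and Pax5 among them, and 3 reached the level for testing; the list summed to between 1236 and 1680 with IgG and between 1155 and 1465 with anti-CD22, mostly from Cd79b (means 1427 and 1276). Astrocyte markers summed to between 5927 and 8617 with IgG and between 6657 and 8537 with anti-CD22. Neutrophil and monocyte markers summed to between 140.4 and 41402 with IgG and between 87.2 and 7923 with anti-CD22. Genes that respond to tissue handling (immediate early and dissociation genes) had a median log2 difference of -0.44 with anti-CD22, and 15 of 19 were lower. By limma 1 of them, lower, passed an adjusted p of 0.05 (0.0227), the only gene called of all genes tested. At an unadjusted p under 0.05 by limma, 11 of the 19 were lower (background 5.95%). The relation between transcript length and relative level, the log2 level minus each gene's mean over all libraries, also differed between libraries. Its Spearman rho across 11224 genes ran from -0.26 to -0.0029 in the IgG libraries and from -0.27 to 0.33 in the anti-CD22 libraries. This length trend sets each library against the others and is not the relation of length and level inside a single library. In such bulk samples, fewer cells of a type and less RNA per cell cannot be told apart.

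Stress elements near start sites are known parts of the control of such targets, and the letters found there are given before the values. A search covered both strands of the 300 bases around each RefSeq start (250 before and 50 after, assembly GRCm38.p6), and 9 of the 10 genes had such a window. ATF6 with the factor NF-Y is known to bind the ER stress element, ERSE (CCAAT, 9 bases of any kind, then CCACG), and a shorter form, ERSE-II (ATTGG, 1 base of any kind, then CCACG). ATF4 with C/EBP factors is known to bind the C/EBP-ATF response element, CARE (searched as TGATGCAA). Each match is printed in the direction of the gene with 5 bases on either side, in capitals where it matches.
Hspa5, ERSE, chr2:34772020-34772048, plus strand: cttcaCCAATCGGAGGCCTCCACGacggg
Hsp90b1, ERSE, chr10:86705633-86705661, minus strand: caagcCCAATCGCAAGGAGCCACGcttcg
Hsp90b1, ERSE on the opposite strand, chr10:86705528-86705556, minus strand: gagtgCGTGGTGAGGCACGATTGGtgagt
Herpud1, ERSE-II, chr8:94386372-94386392, plus strand: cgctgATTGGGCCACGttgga
Herpud1, CARE on the opposite strand, chr8:94386312-94386329, plus strand: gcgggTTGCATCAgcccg

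The full ERSE thus stood in 2 of the 9 windows, Hspa5 and Hsp90b1, and in 0.119% of all 32851 windows. In Hspa5 it covered bases 65 to 47 before the start, and in Hsp90b1 the copies began 212 and 107 bases before it. GENCODE starts Hspa5 further upstream, at 34771970, so by its annotation the Hspa5 stretch lies within the gene. ERSE-II stood in Herpud1 alone of the 9, at bases 52 to 42 before the start, and in 0.0365% of all windows. CARE was also found in Herpud1, at bases 112 to 105 before the start, and in 0.895% of all windows. The unfolded protein response element to which XBP1 is known to bind, UPRE (TGACGTGG), was in 0 of the 9 windows and in 0.676% of all. The first 5 letters of ERSE are the CCAAT box, which NF-Y binds, and those of ERSE-II are its other strand. A CCAAT box on either strand occurred in 7 of the 9 windows and in 37.4% of all. A match is a stretch of letters, and binding was not measured. Elements with a mismatch or outside the window were not searched for, so a gene without a match may still hold such an element.

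The comparison of anti-CD22 with IgG asked whether blocking CD22 in the aged brain went with another level of these genes. None of the 10 passed an adjusted p of 0.05 in limma's test over all genes, against a background of 0.00859% (1 of 11646 genes). Counts recovered as whole reads also gave 0 of 10 with edgeR's quasi-likelihood test (background 0.0%) and 0 of the 9 with an adjusted p from DESeq2 (background 0.41%, 32 of 7807 genes). At an unadjusted p under 0.05, 2 of 10 were past it by limma, Herpud1 and Xbp1, and 2 by each of edgeR and DESeq2. The background by limma was 12.8% in either direction (1485 of 11646 genes) and 5.95% for genes lower with anti-CD22. Over all genes edgeR had fewer past it, 1027 of 11646, and DESeq2 had 1165. Mean levels were higher with anti-CD22 for 5 genes and lower for 5 (backgrounds 50.2% and 49.8%). The median log2 difference of the 10 was -0.0031, next to 0.0011 over all genes tested. The values of the groups overlapped for each of the 10 genes, and groups without overlap made up 0.258% of all genes. All differences below are on log2(normalized count + 1), anti-CD22 minus IgG.

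**Figure D1:**
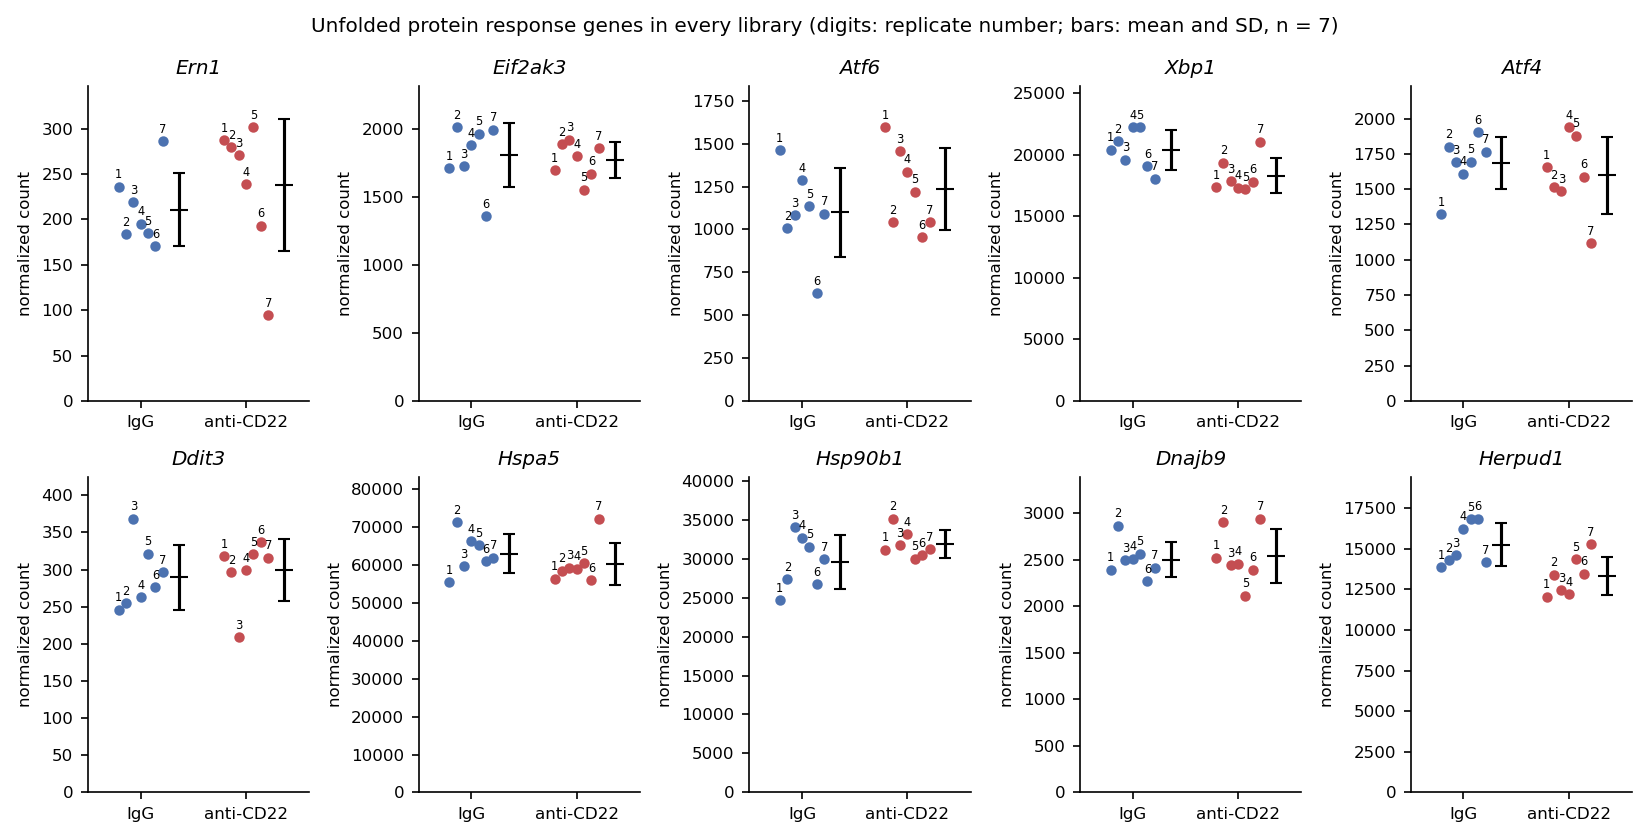
Normalized count of each of the 10 genes (y axes, from 0) in the 7 IgG and 7 anti-CD22 libraries; points are libraries with their replicate number, and bars are the mean and SD. Herpud1 and Xbp1 each have 5 anti-CD22 libraries under the lowest IgG library, and the groups overlap in every panel.

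Among the sensors, Ern1 (chromosome 11: 106394650 to 106487852, GRCm38), a kinase and ribonuclease, ran from 170.1 through a median of 195.1 to 285.8 normalized counts with IgG, and from 94.3 through 270.5 to 301.6 with anti-CD22. The anti-CD22 libraries were the more spread, with the lowest of all 14 libraries in anti-CD22 replicate 7 and the highest in replicate 5. The means were 210.6 ± 40.1 and 237.7 ± 73.0 (SD, n = 7 each), and the log2 difference was 0.11 (SE 0.22, 95% interval -0.36 to 0.58, adjusted p = 0.865 by limma). It rested on 85 to 325 reads per library. Its interval allows from 0.780-fold to 1.49-fold, the widest of the 10 genes. Without anti-CD22 replicate 7 the log2 difference was 0.32 (95% interval -0.019 to 0.65, adjusted p = 0.324 by limma), and without replicate 5 it was 0.039.

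Eif2ak3 (chromosome 6: 70844515 to 70905245), the kinase PERK, lay between 1361 and 2017 normalized counts with IgG (median 1883) and between 1556 and 1926 with anti-CD22 (median 1802). All anti-CD22 libraries fell inside the IgG range. The means were 1811 ± 233 and 1773 ± 135 (SD, n = 7 each), a log2 difference of -0.022 (SE 0.087, 95% interval -0.20 to 0.16, adjusted p = 0.938 by limma). Atf6 (chromosome 1: 170704674 to 170867771), the sensor that is itself a transcription factor precursor, lay between 630.2 and 1464 with IgG (median 1092) and between 955.6 and 1597 with anti-CD22 (median 1221). Its lowest library of the 14 was IgG replicate 6, which was also the lowest for Eif2ak3, and its highest was anti-CD22 replicate 1. The means were 1100 ± 258 and 1237 ± 239 (SD, n = 7 each), a log2 difference of 0.19 (SE 0.15, 95% interval -0.13 to 0.51, adjusted p = 0.625 by limma). Without IgG replicate 6 alone it was 0.058 (adjusted p = 0.893).

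Of the transcription factors, Xbp1 (chromosome 11: 5520659 to 5525893), the substrate of IRE1, ran from 18051 through 20415 to 22238 normalized counts with IgG and from 17208 through 17814 to 21049 with anti-CD22. Of the anti-CD22 libraries, 6 of 7 were under the IgG median and 5 under the lowest IgG library; replicate 7 was the one above the median. The means were 20384 ± 1593 and 18276 ± 1422 (SD, n = 7 each). The log2 difference was -0.16 (SE 0.058, 95% interval -0.28 to -0.035, or 0.824-fold to 0.976-fold; adjusted p = 0.301 by limma). A two-sided exact permutation test over all 3432 assignments of libraries to groups gave p = 0.0256, not adjusted for the number of genes.

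Atf4 (chromosome 15: 80255184 to 80257541), the factor translated when PERK is active, lay between 1323 and 1906 with IgG (median 1696) and between 1117 and 1940 with anti-CD22 (median 1589). Both the lowest and the highest of the 14 libraries were anti-CD22 libraries, replicates 7 and 4. The means were 1685 ± 185 and 1598 ± 274 (SD, n = 7 each), a log2 difference of -0.088 (SE 0.11, 95% interval -0.31 to 0.14, adjusted p = 0.757 by limma). It was -0.0054 without anti-CD22 replicate 7 and -0.15 without IgG replicate 1. Ddit3 (chromosome 10: 127290774 to 127296288), which encodes CHOP, lay between 245.9 and 368.6 with IgG (median 276.5) and between 208.9 and 336.6 with anti-CD22 (median 316.0). Anti-CD22 replicate 3 was the lowest of the 14 and stood apart from the other 6 of its group, which were all at 296.9 or above. The means were 289.6 ± 43.4 and 299.6 ± 42.2 (SD, n = 7 each), a log2 difference of 0.047 (SE 0.14, 95% interval -0.24 to 0.34, adjusted p = 0.912 by limma). It was 0.13 without anti-CD22 replicate 3 and 0.010 without IgG replicate 1. Exons of Ddit3 overlap exons of Mars, an aminoacyl-tRNA synthetase gene on the other strand, at a mean of 5240.4 normalized counts with IgG and 4669 with anti-CD22. Whether the counting used strand is not given in the sources used here, and without strand the reads of such a pair cannot be told apart.

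Hspa5 (chromosome 2: 34771970 to 34777547), the abundant chaperone BiP that also holds the sensors inactive, ran from 55558 through 61979 to 71247 normalized counts with IgG and from 55949 through 59059 to 72267 with anti-CD22. Of the anti-CD22 libraries 6 lay within the lower part of the IgG range, under its median, and replicate 7 was the highest of all 14. The means were 63010.0 ± 5078 and 60293 ± 5522 (SD, n = 7 each). The log2 difference was -0.064 (SE 0.060, 95% interval -0.19 to 0.061, adjusted p = 0.673 by limma), and the exact permutation test gave p = 0.333. That interval spans 0.877-fold to 1.04-fold. Without anti-CD22 replicate 7 the log2 difference was -0.11 (95% interval -0.22 to -0.0014, adjusted p = 0.288 by limma), and without IgG replicate 2 it was -0.034.

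Hsp90b1 (chromosome 10: 86690209 to 86705509), the ER form of HSP90 known as GRP94, ran from 24672 through 29955 to 34062 with IgG and from 30000.2 through 31223 to 35139 with anti-CD22. All 7 anti-CD22 libraries lay above the median of IgG, within a range that also held 3 IgG libraries. The means were 29573 ± 3433 and 31844 ± 1768 (SD, n = 7 each). The log2 difference was 0.11 (SE 0.065, 95% interval -0.023 to 0.25, adjusted p = 0.469 by limma), with an exact permutation p of 0.135. It was 0.071 without IgG replicate 1. Its exons overlap those of the pseudogene 1810014B01Rik on the other strand, with the same limit as for Ddit3.

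Dnajb9 (chromosome 12: 44205559 to 44210326), known as ERdj4, a co-chaperone of BiP and a target of XBP1, lay between 2270.0 and 2869 with IgG (median 2499) and between 2114 and 2944 with anti-CD22 (median 2461). The lowest and the highest of the 14 libraries were both anti-CD22 libraries, replicates 5 and 7. The means were 2504 ± 188 and 2541 ± 293 (SD, n = 7 each), a log2 difference of 0.016 (SE 0.076, 95% interval -0.14 to 0.18, adjusted p = 0.950 by limma).

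Herpud1 (chromosome 8: 94386438 to 94395377), a membrane protein that helps assemble the machinery of ER-associated degradation, ran from 13877 through 14595 to 16862 with IgG and from 12063 through 13409 to 15272 with anti-CD22. As for Xbp1, 6 of 7 anti-CD22 libraries were under the IgG median and 5 under the lowest IgG library, with replicate 7 the exception above the median. The means were 15266 ± 1315 and 13322 ± 1192 (SD, n = 7 each). The log2 difference was -0.20 (SE 0.064, 95% interval -0.33 to -0.063, or 0.795-fold to 0.957-fold; adjusted p = 0.244 by limma). The exact permutation test gave p = 0.0163, not adjusted for the number of genes. By p-value Herpud1 ranked 292nd and Xbp1 552nd of the 11646 genes.

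The longest annotated transcripts of Herpud1 and Xbp1 have 1952 and 2129 bases, and the length trend of the libraries moved with the groups. Once the trend on transcript length and GC content had been taken out of each library, the log2 difference was -0.12 for Herpud1 (adjusted p = 0.554 by limma) and -0.092 for Xbp1 (adjusted p = 0.675), and 0 of 10 genes had an unadjusted p under 0.05. Without the 3 anti-CD22 libraries of the steepest trend, replicates 1, 2 and 3, it was -0.14 for Herpud1 and -0.15 for Xbp1 (adjusted p = 0.972 for both). Under the trend removal Hspa5 was at -0.12, Ddit3 at 0.10 and Hsp90b1 at 0.052. The difference of Atf6, with a transcript of 7246 bases, was 0.031 and that of Ern1, with 6946 bases, was -0.0087.

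Within the groups, the level of each gene was set against this length trend and against the mean of the handling genes, 20 relations in all over the 14 libraries with each group centred. Ern1 had Pearson's r = 0.83 with the length trend (permutation p = 0.00361, adjusted p = 0.0467; Spearman's rho 0.61, permutation p = 0.0305, adjusted p = 0.261). Herpud1 had r = -0.71 (permutation p = 0.00467, adjusted p = 0.0467; rho -0.71, permutation p = 0.00873, adjusted p = 0.175). Without anti-CD22 replicates 1 and 3, the libraries farthest from the median trend before centring, r was 0.83 and -0.64. Anti-CD22 replicate 7, with the lowest trend of the 14 and the lowest Ern1, stayed in. The r of these relations without it was not computed. Libraries in which long transcripts stood higher than in the other libraries thus had more Ern1 and less Herpud1 by Pearson's r, and by rank neither relation passed the adjustment. The trend is itself built on transcript length, and Ern1 (6946 bases) is longer than Herpud1 (1952 bases). These signs are therefore not a result particular to these genes. No other of the 20 relations passed an adjusted p of 0.05 by either measure, and the closest with the handling genes was Atf6 (r = -0.55, permutation p = 0.0308, adjusted p = 0.206; rho -0.58, permutation p = 0.0392, adjusted p = 0.261; r = -0.39 without the same libraries). The part of the length trend and of handling in the group differences was not tested beyond these values.

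**Figure D2:**
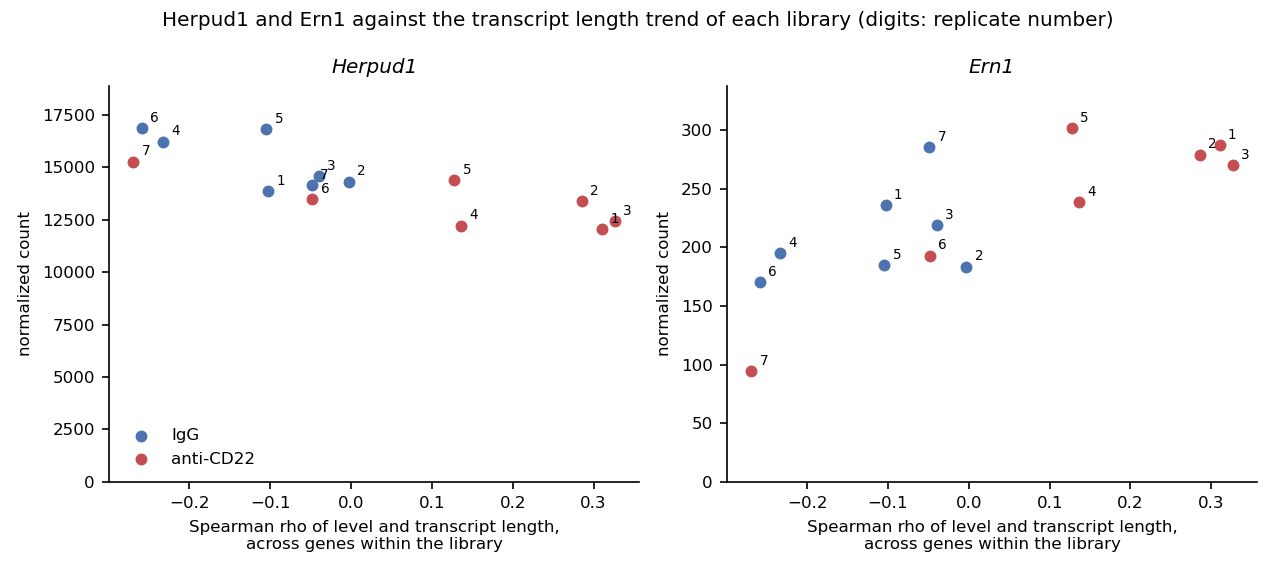
Normalized count of Herpud1 (left) and Ern1 (right) on the y axes, from 0, against the length trend of each library (x axis). The trend is Spearman's rho across genes of transcript length with log2 level minus the gene's mean over all libraries. Points are libraries with their replicate number. The 5 libraries with the highest rho are anti-CD22 libraries, and anti-CD22 replicate 7, with the lowest rho of -0.27, has the lowest Ern1 and the highest Herpud1 of its group.

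Read library by library, the lowest and highest values were spread over most libraries. Anti-CD22 replicate 7 had the highest Hspa5 and Dnajb9 and the lowest Atf4 and Ern1 of all 14; its Ern1 was 1.14 log2 units under the IgG mean and its Atf4 0.59 under it. IgG replicate 6 had the lowest Atf6, 0.76 under the IgG mean, and the lowest Eif2ak3, 0.40 under it, and the highest Herpud1, 0.15 above it. Neither library was at an extreme of the 14 for all 10 genes. Levels of opposite sign cancel in a median, so a median near 0 does not make a library ordinary. The median of the 10 relative levels was 0.051 in anti-CD22 replicate 7 and -0.11, the lowest of the 14, in IgG replicate 6. Over the 14 libraries this median ran from -0.11 to 0.092.

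**Figure D3:**
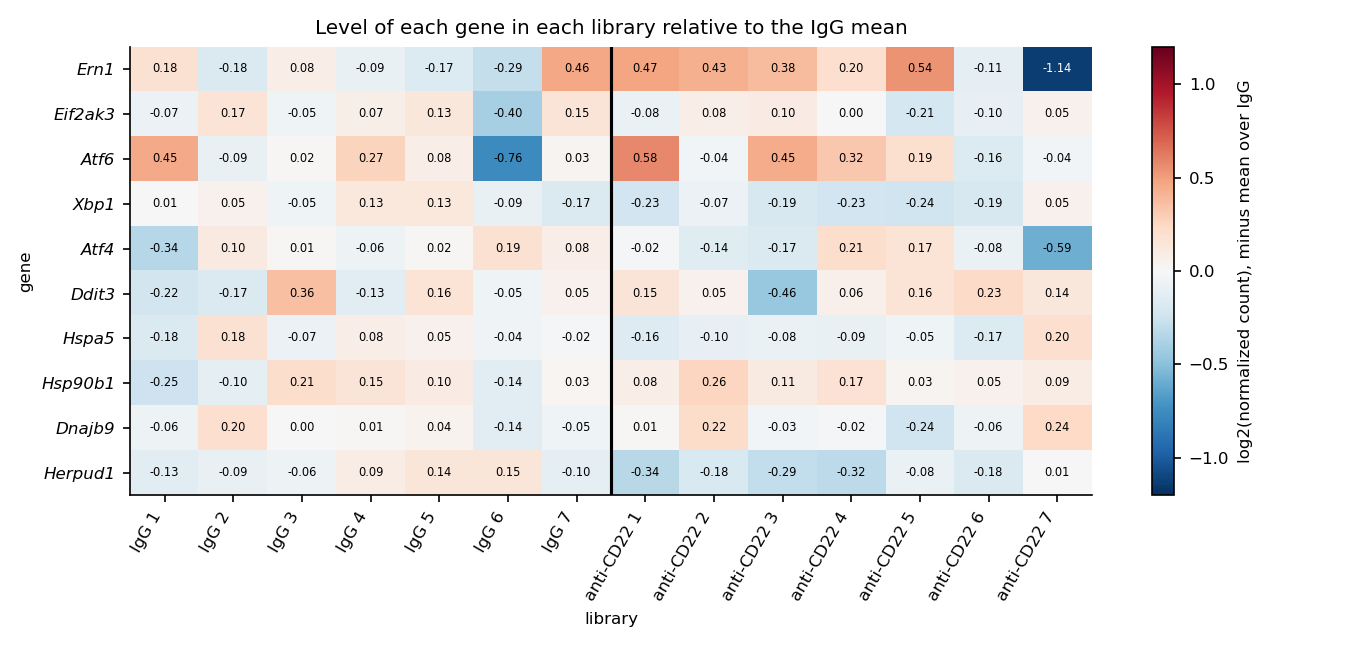
Level of each of the 10 genes (rows) in each library (columns) as log2 normalized count minus the mean over the IgG libraries, in color and printed in each cell. The most extreme cell is Ern1 in anti-CD22 replicate 7 at -1.14, and Xbp1 and Herpud1 are under 0 in 6 of 7 anti-CD22 libraries.

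Compared per kb of transcript, the chaperones and their regulator stood far above the sensors. Mean levels with IgG, in normalized counts per kb, were 17160 ± 1383 for Hspa5, 9574 ± 748 for Xbp1, 9179 ± 1066 for Hsp90b1 and 7821 ± 673 for Herpud1 (SD, n = 7). Hspa5 was at the 99.4th percentile of tested genes with a known length. Dnajb9 followed at 1018 ± 76.3 and Atf4 at 834.5 ± 91.8, then Eif2ak3 at 401.2 ± 51.7, Ddit3 at 298.8 ± 44.8, Atf6 at 151.8 ± 35.6 and Ern1 at 30.3 ± 5.77 (SD, n = 7). Ern1 was at the 19.8th percentile. By the means over both groups, Hspa5 exceeded Xbp1 1.85-fold, and it did so in all 14 libraries. Xbp1 and Hsp90b1, the next neighbours, did not keep their order, with Xbp1 above Hsp90b1 in 6 of 14 libraries and a ratio of means over both groups of 0.953. Hsp90b1 was above Herpud1 in 13 of 14 libraries and Dnajb9 above Atf4 in 12 of 14, with overlapping ranges. Over both groups the widest gap between neighbours lay from Herpud1 to Dnajb9, 7.14-fold, and Atf6 exceeded Ern1 5.00-fold, each in all 14 libraries. The length used is that of the longest annotated transcript, so these levels would shift for a gene that microglia express in a shorter form.

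**Figure D4:**
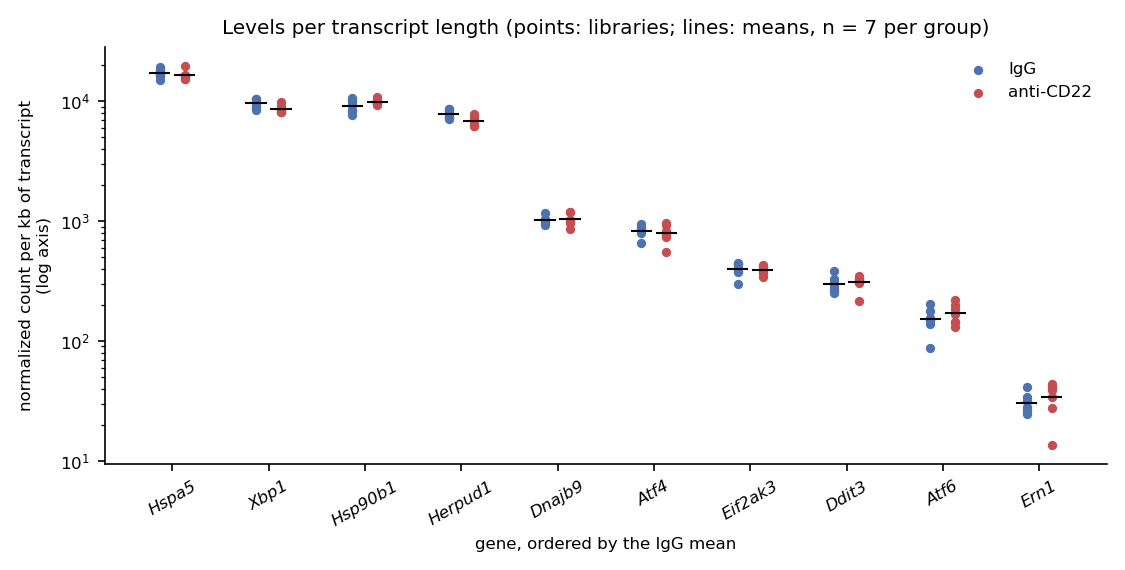
Normalized count per kb of transcript (log axis) of the 10 genes, ordered by the IgG mean; points are libraries and lines are group means (n = 7 each). Hspa5, Xbp1, Hsp90b1 and Herpud1 lie at 6179.9 or above, Ern1 lies below 50, and the groups overlap for every gene.

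The wider pathway was read from 5 lists of other genes, of which 108 reached the level for testing. By limma 0 of the 108 passed an adjusted p of 0.05, 45 were higher and 63 lower with anti-CD22, and the median log2 difference was -0.023, next to 0.0011 over all genes. At an unadjusted p under 0.05, 10 were higher (background 6.8%) and 13 lower (background 5.95%). The 3 genes of smallest p in each list are named with their values, and none of these 15 passed the adjusted threshold. Taking out the length and GC trend moved 11 of them toward 0 by over 1.5 times or past it; those values follow with each gene.

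Among 15 relatives and regulators of the sensors, 8 were higher and 7 lower (median 0.015). Tmbim6, an ER membrane protein that restrains IRE1, was at 22009 ± 1235 with IgG and 19773 ± 2064 with anti-CD22 (SD, n = 7 each), a log2 difference of -0.16 (adjusted p = 0.315 by limma), or -0.10 with the trend taken out. The difference was -0.12 for Creb3, a membrane-bound factor related to ATF6 (adjusted p = 0.469), and -0.16 for Sil1, the nucleotide exchange factor of BiP (adjusted p = 0.516); with the trend taken out these were -0.037 and -0.061. Of 26 genes of the PERK and ATF4 branch, 9 were higher and 17 lower (median -0.062). Cebpg, a C/EBP factor that pairs with ATF4, had the smallest adjusted p of the 108, at 0.163 by limma. It ran from 2178 to 2983 with IgG and from 2796 to 3502 with anti-CD22, a log2 difference of 0.33 (SE 0.077), and each of the 7 anti-CD22 values exceeded the IgG median. With the trend taken out it was 0.22 (adjusted p = 0.457 by limma). Atf3, a stress factor that is also an immediate early gene, had a difference of -0.29 with 7 of 7 libraries under the IgG median (adjusted p = 0.296 by limma). Ppp1r15a, which encodes GADD34 and reverses the phosphorylation of eIF2alpha, had -0.23 (adjusted p = 0.323). Both differences had the sign of the handling genes' median. The labels hold no measure of handling itself, and the parts of handling and of the antibody in these genes were not tested.

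Of 24 ER chaperones and folding enzymes, 10 were higher and 14 lower (median -0.034). Ero1lb, an oxidase that renews disulfide bond formation, had a log2 difference of 0.28 (adjusted p = 0.289 by limma), Sdf2l1, a partner of ER DNAJ proteins, -0.22 (adjusted p = 0.301) and Dnajc3, a BiP co-chaperone, 0.15 (adjusted p = 0.315). On values freed of the length trend, Dnajc3 was at 0.017 and Sdf2l1 at -0.087. Of 22 genes of translocation and early secretion, 12 were higher and 10 lower (median 0.0050). Srp54a of the signal recognition particle had 0.26 with 7 of 7 libraries above the IgG median (adjusted p = 0.235 by limma), Sec61b of the translocation channel -0.29 (adjusted p = 0.336) and Ssr1 of the translocon-associated complex 0.15 (adjusted p = 0.342), which the trend removal turned to -0.041. With the trend taken out Srp54a was at 0.14 and Sec61b at -0.16.

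Of 21 genes of ER-associated degradation, the process Herpud1 serves, 6 were higher and 15 lower (median -0.026). Sel1l, the partner of the ubiquitin ligase HRD1, went the other way from Herpud1: it ran from 4952 to 6153 with IgG and from 5367 to 7661 with anti-CD22, a log2 difference of 0.23 with 6 of 7 libraries above the IgG median (adjusted p = 0.239 by limma). With the trend removed it was 0.10. Ube2g2, a ubiquitin-conjugating enzyme of this process, had -0.18 (adjusted p = 0.372) and Selk, a selenoprotein of the ER membrane, -0.14 (adjusted p = 0.390). Ube2g2 was at -0.10 with the trend taken out.

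**Figure D5:**
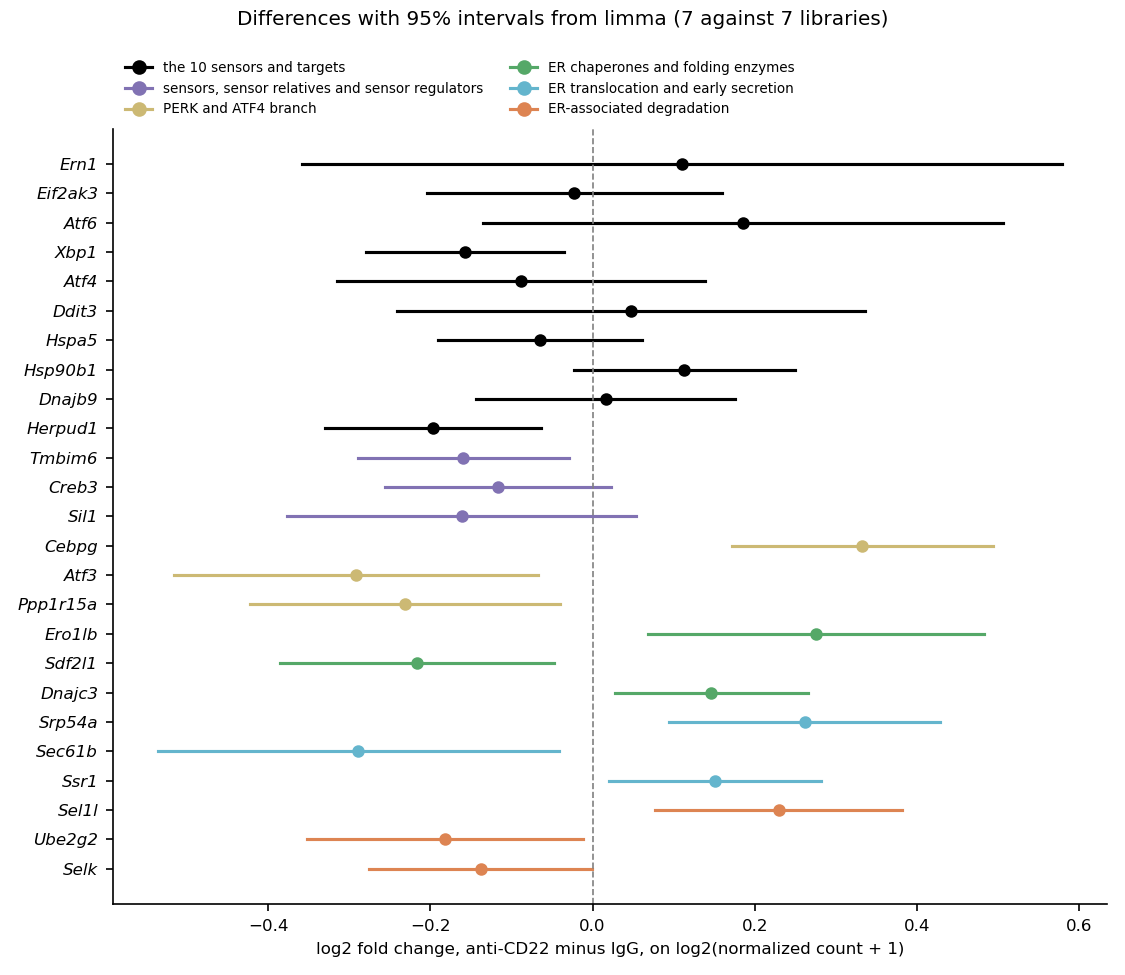
Log2 fold change, anti-CD22 minus IgG (x axis), with 95% intervals from limma for the 10 genes (black) and for the 3 genes of smallest p in each of 5 pathway lists (colors). Of the 10, the intervals of Xbp1 and Herpud1 lie under 0, and no gene shown passed an adjusted p of 0.05.

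Genes with the stress element were also grouped by their letters. ERSE or ERSE-II stood in the windows of 11 genes of the 10 and the pathway lists: Hspa5, Hsp90b1 and Herpud1, and beside them Calr, Canx, Pdia6, Creld2, Dnajc3, Syvn1, Derl3 and Dnajb11. With anti-CD22 3 of the 11 were higher, Hsp90b1, Canx and Dnajc3, and 8 lower (background 49.8% lower). The median log2 difference was -0.094, and 0 were past an adjusted p of 0.05 by limma. Derl3, among the lower, had means of only 44.5 with IgG and 30.1 with anti-CD22. Hsp90b1 and Hspa5, which share the full element, thus lay on opposite sides of 0. CARE stood in 7 genes, of which 1 was higher and 6 lower, Herpud1 among the lower (0 past the threshold).

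Whether the 10 genes varied together between libraries of 1 group was asked over their 45 pairs, with each group centred. No pair passed an adjusted permutation p of 0.05. The closest was Xbp1 with its target Dnajb9 (Pearson's r = 0.70, permutation p = 0.00630, adjusted p = 0.170; Spearman's rho 0.73, permutation p = 0.00481, adjusted p = 0.132; n = 14), and r was 0.77 without IgG replicates 4 and 5, 0.60 without anti-CD22 replicate 7 and 0.46 with the length and GC trend taken out. Eif2ak3 and Dnajb9 had r = 0.64 (adjusted permutation p = 0.170), which was 0.46 without the libraries farthest from the median. Xbp1 and Atf4, at the heads of the IRE1 and PERK branches, had r = -0.63 (adjusted permutation p = 0.175), which was -0.72 without IgG replicates 4 and 5, -0.42 without anti-CD22 replicate 7 and -0.42 with the trend taken out. Other values moved with the libraries and the processing. Hspa5 and Ern1 had r = -0.67, which was -0.12 without IgG replicate 2 and anti-CD22 replicate 7, -0.29 without the latter alone and -0.72 with the trend taken out. Hspa5 and Dnajb9 had r = 0.57, which was 0.055, 0.39 and 0.69 in the same order.

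By likeness of pattern over the 14 libraries (Pearson's r with groups centred, over all genes tested, a description without p), genes among the 3 nearest to each of the 10 are named. Herpud1 was nearest to Plbd2 (r = 0.94), Clcc1 (0.90) and Edem2 (0.90), the last of which is on the list of ER-associated degradation and the only gene of this paragraph on a pathway list. Dnajb9 was nearest to Tmem33 (r = 0.95), then Gm14288 and Cnep1r1, and Ern1 to Kdm3b (0.94), Slc38a2 and Hps5. Atf4 was nearest to Stat5a (r = 0.90), Zc3h3 and Cep250, Atf6 was close to Slc37a1 (0.82) and Sec24c, and Xbp1 was nearest to Apip (0.87), Lman2l and Pdcd6. For Eif2ak3 they were Cd38 (r = 0.86), Cfhr2 and Nr2c2, for Hsp90b1 Sgcb (0.85), Acsl3 and Elp2, for Hspa5 Mios (0.84), Commd3 and Ripk2, and for Ddit3 Cdk5rap2 (0.81), Prss36 and Zdhhc1. Of the 10 genes themselves, Xbp1 ranked 110th in likeness to Dnajb9 and Dnajb9 70th in likeness to Xbp1. All these libraries share depth and length differences, which were not taken out here.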

How the data were processed

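The tools bcl2fastq, STAR and DESeq2 and the build mm10 are named in the submitters' processing notes, for paired reads of 100 bp; their versions, the annotation and any use of strand were not stated there. In the deposited table each value is a normalized count, a signal that the authors made by dividing each library's counts per gene by 1 size factor; the step between values showed this. Of 24421 entries, 27 with names turned into dates were left out (at most 0.149% of a library) and are not analysed here, and 0 columns lacked a sample. Groups and replicate numbers came from the titles.

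The main test was limma (trend, two-sided) on log2(normalized count + 1) over 11646 genes with a mean of at least 10, with Benjamini-Hochberg adjustment over all of them and a threshold of 0.05. Single genes were also tested by exact permutation, and correlations by 100000 permutations within groups, adjusted over their family. Values were whole multiples of 1 step within 0.1 reads, so reads were recovered for 13 libraries for edgeR and DESeq2; anti-CD22 replicate 3 was left out there because its step is close to 1. DESeq2 gave no adjusted p for 3839 genes, Ern1 among them. Lengths and coordinates came from the longest transcript in GENCODE vM21 and start windows from RefSeq. The length and GC trend was removed with natural splines (4 degrees of freedom); Selk had no length and was left unadjusted. No replicates agreed within counting noise (lowest chi-square per gene 17.9). Counts of 11646 genes simulated for this comparison gave back 81 of 100 true 1.5-fold changes and 100 of 100 true 2-fold changes, with 14 false calls. The simulation gave every gene the same dispersion, had no length trend and changed only genes of higher mean. These shares therefore do not give the power for the genes followed here.

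The 10 genes and the lists were chosen with earlier results of these data known. The named genes are the 10, the 3 of smallest p in each pathway list and the 3 most alike to each of the 10, of which 1 is not reported here. Alternatives were other pseudocounts, filters, scalings, variance models, a replicate block, trend removal, count models and leaving out libraries. Tools were R 4.3.3, limma 3.58.1, edgeR 4.0.16, DESeq2 1.42.0, Python 3.11.15, scipy 1.17.1 and matplotlib 3.10.9.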

Additional observations from a re-analysis of the deposited data

Results flagged for a closer look

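A library counted as far from its group when its gap to the nearest other, divided by the range of the group, passed 0.568, Dixon's critical value for 7 libraries. Of 50 group checks over the 25 genes 5 did so, and chance flags about 1 in 20. Hspa5 in anti-CD22 replicate 7 was at 72267 normalized counts, with the next library of its group at 60548. Ddit3 in anti-CD22 replicate 3 was at 208.9, under the next at 296.9. Ppp1r15a, which reverses the phosphorylation of eIF2alpha, was at 716.6 in the same library, under the next at 902.0. Ssr1 of the translocon-associated complex was at 5846 in IgG replicate 6, under the next at 6441. Selk, a selenoprotein of the ER membrane, was at 4606 in anti-CD22 replicate 7, above the next at 3649.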

How the results depend on the processing

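None of the 10 genes passed an adjusted p of 0.05 under any of 29 alternatives. The lowest adjusted p was 0.0941 for Herpud1 and 0.106 for Xbp1, both without anti-CD22 replicate 7, where the log2 differences were -0.23 and -0.19; over all alternatives the differences kept their direction, and the highest adjusted p of both was 0.972. Of the 10, Atf4, Ern1, Eif2ak3 and Dnajb9 changed sign under at least 1 alternative. Trend removal gave 0.0016 for Atf4, -0.0087 for Ern1, -0.029 for Dnajb9 and -0.041 for Ssr1, and leaving out the 3 libraries of steepest trend gave -0.13 for Ern1 and -0.022 for Dnajb9; sample weights gave -0.0044 for Dnajb9. On leaving out 1 library, Dnajb9 ran from -0.021 to 0.059 and Eif2ak3 from -0.089 to 0.0084, and Ern1, Atf6, Atf4, Ddit3, Hspa5 and Hsp90b1 moved by over 1.5 times without changing sign (values beside each gene in the report); the cause was not tested. Among the 15 pathway genes named, Ssr1 alone turned in 435 fits and 0 passed the threshold. The count over all genes, 1, was 0 without the mean-variance trend, with the length trend removed, without the 3 steepest libraries and by edgeR (1027 genes at an unadjusted p under 0.05 by edgeR, 1165 by DESeq2), 8 with sample weights and 32 by DESeq2, and ran from 0 to 43 on leaving out 1 library, 43 being without anti-CD22 replicate 7. No pairing by replicate number was seen (correlations of same-numbered libraries from -0.15 to 0.16, 2 of 7 best with their own number). Correlations over all genes cannot exclude a pairing that touches some genes. With the replicate block 2 genes were called, and Herpud1 had an adjusted p of 0.203 by limma. At an unadjusted p under 0.05 by limma there were 1625 genes with the block and 1485 without it. Counting error made up from 0.235% of the variance within groups for Hspa5 to 15.2% for Ddit3.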
